A study of Mus musculus with 24 samples.

Results

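The genes described here encode the subunits of the transcription factor NF-κB and the inhibitors that NF-κB itself switches on, 10 genes in all: Rela, Relb, Rel, Nfkb1 and Nfkb2 for the subunits, and Nfkbia, Nfkbie, Tnfaip3, Bcl3 and Nfkbiz for the inhibitors. They were found through the transcript accession that the array files give for each probe, which gave 12 probes among the 55681 probes tested, with 2 probes each for Nfkb1 and Relb. RNA of primary thymocytes from C57BL/6J mice was measured on 24 arrays, 3 mice in each of 8 groups, against a common mouse reference RNA, and the values are log2 ratios of thymocyte RNA (Cy5) over reference RNA (Cy3). Male and female mice were non-irradiated (control), received 0.075 Gy of X-rays (low dose), received 1.75 Gy of γ-rays (high dose), or received 0.075 Gy of X-rays and, 6 h later, 1.75 Gy of γ-rays, the adaptive regimen called RAR for radio-adaptive response. The irradiated mice were 4 to 5 weeks old, the age of the control mice and the time from the last irradiation to the collection of the thymus are not given in the sources used here. The labels speak of irradiated thymocytes and the methods of irradiated mice, and the latter is followed here. The control and irradiated mice differed in no other treatment or allele that the labels name. The thymus was dispersed mechanically and passed through a strainer without sorting, so that macrophages, dendritic cells and B cells of the organ could be part of a sample.

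NF-κB proteins are dimers of the products of the Rel genes (Rela, Relb and Rel) and of Nfkb1 and Nfkb2, whose precursors are processed to DNA-binding subunits. In resting cells IκB proteins such as the products of Nfkbia and Nfkbie hold the dimers in the cytoplasm, and DNA damage, cytokines and antigen receptors release them through the IκB kinase. NF-κB then induces its own brakes: Nfkbia, Nfkbie, the ubiquitin-editing enzyme A20 encoded by Tnfaip3, and the nuclear IκB proteins encoded by Bcl3 and Nfkbiz, which bind dimers on DNA and can raise or lower transcription. In the thymus the pathway is known for its part in the survival and selection of T cells and in the cells of the medulla.

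The promoter stretches below are shown because these genes are known as targets of NF-κB themselves. They come from RefSeq (GRCm38.p6), were read 5′ to 3′ on the strand of the gene, and lie upstream of the listed start, with matches to the κB consensus, on either strand, in capitals. Of the 10 genes, 7 had a window of 250 bases before the start in that table, and 5 of these held a match, against 7.25% of 32851 windows and 8.23% of 27025 genes. The stretch of Nfkb2 is chr19:46304695-46304724 (plus strand), that of Rel is chr11:23771020-23771079 (minus strand), that of Nfkbia is chr12:55492648-55492707 (minus strand), that of Nfkbie is chr17:45555580-45555639 (plus strand) and that of Tnfaip3 is chr10:19015411-19015540 (minus strand).
Nfkb2: cacGGGAATTCCCCccctcggggggccgaa
Rel: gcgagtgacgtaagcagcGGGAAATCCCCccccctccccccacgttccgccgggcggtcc
Nfkbia: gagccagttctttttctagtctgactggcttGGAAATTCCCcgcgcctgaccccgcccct
Nfkbie: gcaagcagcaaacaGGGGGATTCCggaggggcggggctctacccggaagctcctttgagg
Tnfaip3: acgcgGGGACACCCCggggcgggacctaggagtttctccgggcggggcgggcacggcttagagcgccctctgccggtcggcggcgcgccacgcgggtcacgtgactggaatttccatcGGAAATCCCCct
The windows of Rela and Bcl3 held no match, which says only that these letters were not within 250 bases of the listed start. A match is a description of the sequence and not a bound site.

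Thymocyte signal was well above background on all 24 arrays for 8 of the 10 genes. The exceptions were Rel, which reached that level on 3 of 24 arrays, and Nfkbia, whose spot on the array of male low dose replicate 1 was marked as an outlier by the scanner software and left out, so that male low dose has 2 values for this gene. The 8 markers of thymocytes of all stages (Cd3d, Cd3e, Cd3g, Lck, Zap70, Thy1, Cd5 and Lat) were well above background on every array, and their mean log2 ratio was between 4.0 and 4.21 on all 24. The share of spots well above background in Cy5 ran from 34.7% (female RAR replicate 3) to 71.8% (female RAR replicate 2). The arrays lay on 3 slides of 8. All female control arrays were on slide 3 and all female high dose arrays on slide 1, so that no slide holds both groups. In bulk RNA, fewer cells of a type and less RNA per cell cannot be told apart.

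Bcl3 rose under every irradiation in both sexes, more than any other member. The log2 ratios of Bcl3 were −1.19, −1.19 and −1.30 in female control and −1.29, −0.96 and −1.24 in male control. After the low dose they were 1.47, 1.16 and 1.33 in females and 1.02, 1.11 and 1.63 in males. After the high dose they were 1.49, 1.29 and 1.53 in females and 1.67, 1.62 and 1.76 in males. No irradiated array came near the control arrays: the lowest irradiated value was 1.02 and the highest control value was −0.96. After RAR the values were 1.93, 2.24 and 2.29 in females and 2.66, 2.26 and 1.89 in males, above every single-dose array of the same sex.

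Relative to control, the fold of Bcl3 was 5.85 (female low dose), 5.33 (male low dose), 6.34 (female high dose), 7.19 (male high dose), 10.4 (female RAR) and 10.8 (male RAR). The standard error of each log2 difference was 0.18, and the adjusted p in limma was between 2.52e-10 and 1.24e-07 (n = 3 mice against 3). A gene was called where this p, corrected for all probes tested (Benjamini-Hochberg), stayed under 0.05 and the fold reached 1.5 or more. The exact permutation test of a single gene cannot go below 0.1 with 3 against 3, and gave 0.1 in each of these comparisons. Within a slide, where both groups were present, the log2 difference of Bcl3 was 2.40 and 2.42 for male low dose, 2.56 for female low dose, 2.98 for male high dose and 3.96 for male RAR, each against control. These rest on few arrays. The values 3.96 and 2.40 each set 1 array against 1 control array, and 2.42 sets 2 against 2. Female low dose was 1 against 3, and male high dose 2 against 1. Over all slides the male RAR difference was 3.44.

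**Figure D1:**
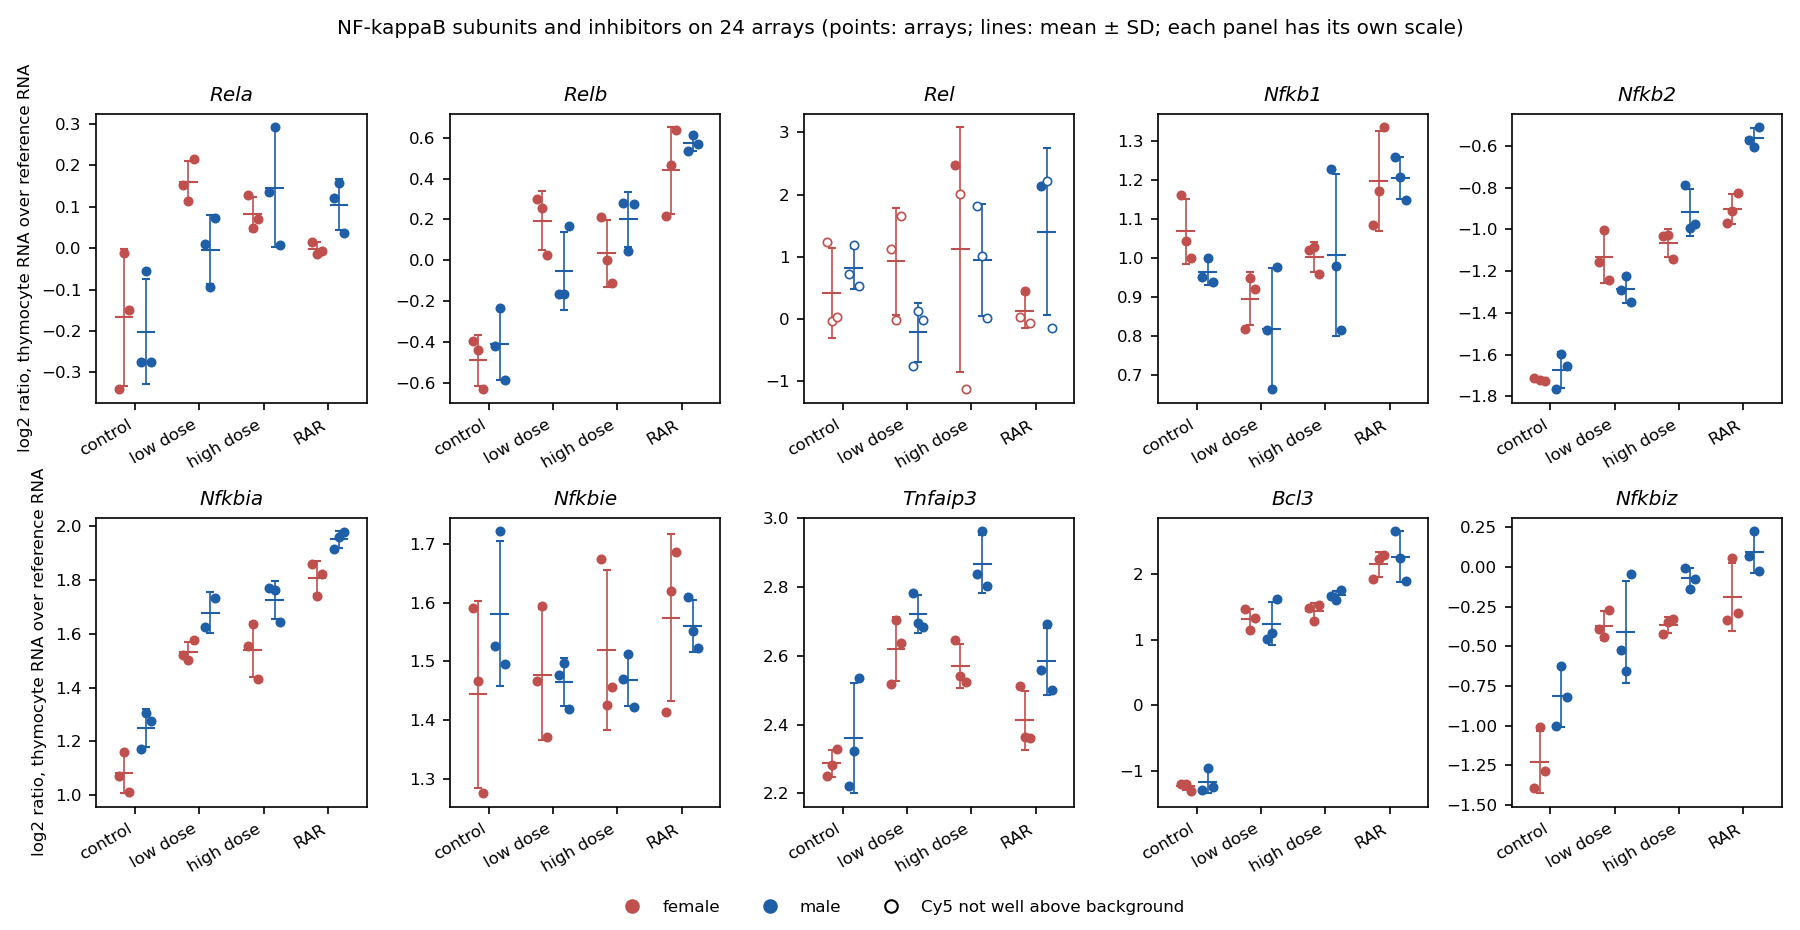
Log2 ratio of thymocyte RNA over reference RNA (y axis, own scale in each panel) of the 10 genes in the 4 treatments (x axis), with females in red and males in blue. Points are arrays, lines are the mean ± SD of a group, and open points are arrays whose Cy5 signal was not well above background. Bcl3 lies between −1.30 and −0.96 on the control arrays and between 1.02 and 2.66 on the irradiated ones, while Nfkbie lies between 1.28 and 1.72 on the control arrays and between 1.37 and 1.69 on the irradiated ones.

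Nfkb2 and Relb, the pair of subunits of the alternative NF-κB pathway, were the subunit genes called higher than control. The log2 ratios of Nfkb2 were −1.71, −1.72 and −1.73 in female control and −1.77, −1.60 and −1.65 in male control. They were −1.16, −1.0 and −1.24 in female low dose, −1.29, −1.22 and −1.35 in male low dose, −1.03, −1.03 and −1.14 in female high dose, and −0.79, −0.99 and −0.97 in male high dose. In RAR they were −0.97, −0.91 and −0.83 in females and −0.57, −0.61 and −0.51 in males. All 18 irradiated arrays were above all 6 control arrays, an order that 3.14% of 55028 probes with complete values showed.

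Nfkb2 was 1.57-fold higher than control after the high dose in females (adjusted p = 5.67e-05) and 1.69-fold in males (adjusted p = 9.97e-06). After RAR it was 1.76-fold higher in females (adjusted p = 1.31e-06) and 2.16-fold higher in males (adjusted p = 2.74e-08). The low dose left it under the 1.5-fold limit, with log2 differences of 0.58 in females (adjusted p = 0.00016) and 0.39 in males (adjusted p = 0.0068). The female value passed the limit without female control replicate 1 (0.59), without female low dose replicate 1 (0.60) or 3 (0.64), and with quantile normalization (0.61). The female high dose call ended with the slide as a block (log2 difference 0.58, adjusted p = 0.037), and no slide held both groups. With Cy5 alone Nfkb2 was under the limit for female high dose (0.29, adjusted p = 0.057) and female RAR (0.45, or −0.19 when set against the Cy5 median shift of all probes and 0.70 against that of the brighter probes), and for male high dose its log2 difference was 0.58. The standard error of these log2 differences was 0.087.

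Relb followed a similar order by group. Its log2 ratios were −0.40, −0.44 and −0.63 in female control and −0.42, −0.23 and −0.58 in male control. In RAR they were 0.22, 0.47 and 0.64 in females and 0.54, 0.61 and 0.57 in males. The single-dose values ran from −0.16 to 0.30 and overlapped RAR in females, and again all 18 irradiated arrays were above the 6 controls. Relb was 1.90-fold higher in female RAR (adjusted p = 3.65e-05) and 1.98-fold higher in male RAR (adjusted p = 1.50e-05) than in control, with a standard error of 0.14 on the log2 scale.

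Of the single doses, Relb was called after the low dose in females (1.61-fold, adjusted p = 0.0019) and after the high dose in males (1.53-fold, adjusted p = 0.0038). The male high dose call ended without male control replicate 3 (log2 difference 0.53), without male high dose replicate 1 (0.57) and without male high dose replicate 3 (0.57). It ended as well with the mean over both Relb probes (0.57). With Cy5 alone both calls ended, at 0.54 for female low dose and 0.49 for male high dose. The log2 differences that were not called were 0.52 for female high dose (adjusted p = 0.014), which was called without female high dose replicate 3 (0.60), and 0.36 for male low dose (adjusted p = 0.11). The second Relb probe differed from the first by at most 0.0913 in any of 10 log2 differences, and it was called for female low dose, both RAR groups against control, and male RAR against male low dose.

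The other subunit genes were not called in any comparison. Rela, the main activating subunit, had control values from −0.34 to −0.012 and irradiated values from −0.093 to 0.29, and 16 of 18 irradiated arrays were above every control. Its log2 difference from control was 0.33 for female low dose (adjusted p = 0.030), 0.35 for male high dose (adjusted p = 0.019) and 0.31 for male RAR (adjusted p = 0.022), all under the 1.5-fold limit. Nfkb1, which encodes the partner of Rela, had control values from 0.94 to 1.16 and irradiated values from 0.66 to 1.34. Its log2 differences from control ran from −0.17 to 0.24, that of male RAR against male low dose was 0.39 (adjusted p = 0.017), and both of its probes stayed under the threshold. For Rel, an important subunit in lymphocytes, the signal was not well above background on any control array. Its ratios, which ran from −1.13 to 2.48 on the irradiated arrays, rest on signal near background, and no fold is given.

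**Figure D2:**
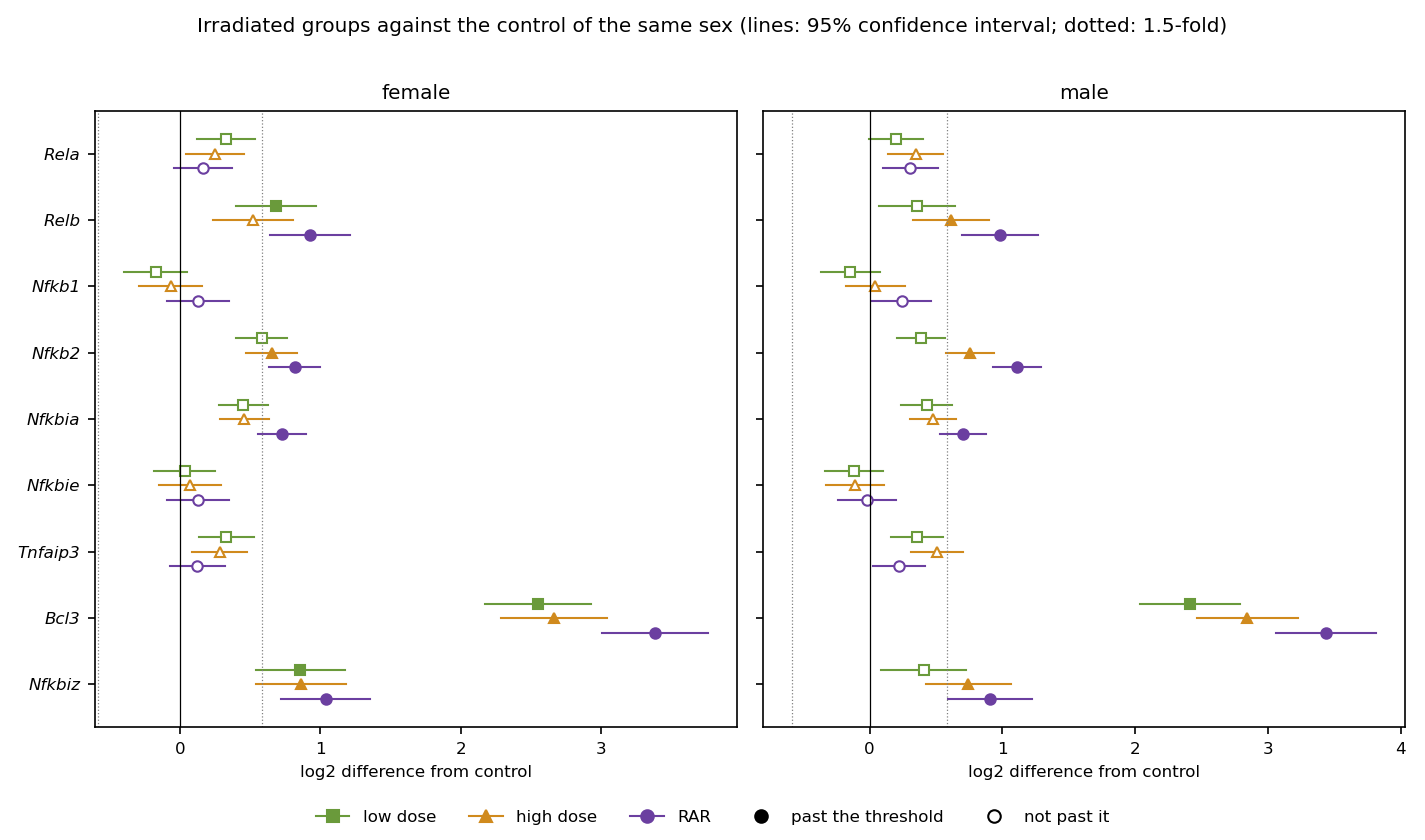
Log2 difference from the control of the same sex (x axis) for 9 genes (y axis), in females (left) and males (right), with the low dose as squares, the high dose as triangles and RAR as circles. Lines are 95% confidence intervals, dotted lines mark 1.5-fold, and filled symbols are past the threshold. Bcl3 stands at 2.42 to 3.44 in all 6 comparisons, and Nfkb2, Relb, Nfkbia and Nfkbiz are past the threshold in both RAR groups.

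Among the inhibitors, Nfkbiz rose next to Bcl3. The log2 ratios of Nfkbiz, a nuclear IκB protein that is needed for a secondary set of inflammatory genes, were −1.39, −1.01 and −1.28 in female control and −1.0, −0.62 and −0.82 in male control. In RAR they were −0.33, 0.054 and −0.29 in females and 0.071, 0.23 and −0.026 in males. The single-dose values ran from −0.66 to −0.0045. The lowest of these, male low dose replicate 2 at −0.66, overlapped the male controls, and the other 17 irradiated arrays were above all controls.

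Nfkbiz was higher than control after the high dose (1.82-fold in females, adjusted p = 0.00079, and 1.67-fold in males, adjusted p = 0.0021), after the low dose in females (1.81-fold, adjusted p = 0.00075) and after RAR (2.05-fold in females, adjusted p = 3.75e-05, and 1.87-fold in males, adjusted p = 0.00012). The standard error was 0.15 on the log2 scale. For male low dose the log2 difference was 0.41 with an adjusted p of 0.10. Male RAR exceeded male low dose by 0.50 (adjusted p = 0.029), which passed the limit without male low dose replicate 3 (0.68). The female high dose call ended with normexp and loess normalization, where the log2 difference was 0.55.

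Nfkbia, the IκBα gene and the best-known feedback target of NF-κB, was called against control after RAR and not after a single dose, although its values separated from control under each irradiation. Its log2 ratios were 1.07, 1.16 and 1.01 in female control and 1.17, 1.30 and 1.28 in male control. They were 1.86, 1.74 and 1.82 in female RAR and 1.92, 1.96 and 1.98 in male RAR. The single doses lay from 1.43 to 1.77, so that the 17 irradiated arrays with a value were above all controls and the RAR arrays were in turn above the single-dose arrays of their sex.

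The fold of Nfkbia was 1.66 in female RAR (adjusted p = 3.39e-06) and 1.63 in male RAR (adjusted p = 3.27e-06), with a standard error of 0.082 on the log2 scale. The single doses gave log2 differences of 0.43 to 0.48 with adjusted p-values from 0.00058 to 0.0052, under the 1.5-fold limit. With the outlier spot kept, as in the deposited table, the log2 difference of male low dose was −0.030 (adjusted p = 0.97). With Cy5 alone, Nfkbia was under the limit in both RAR groups, at 0.35 in females (−0.29 against the Cy5 median shift of all probes and 0.61 against that of the brighter probes) and 0.47 in males (0.14 and 0.71). Set against the Cy5 shift of all probes, Nfkb2, Relb and Nfkbiz in male RAR were at 0.53, 0.55 and 0.53, under the limit, and against that of the brighter probes at 1.09, 1.12 and 1.1. Quantile normalization also ended its male RAR call (0.43).

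Tnfaip3 and Nfkbie were not called anywhere. Tnfaip3 had control values from 2.22 to 2.54, and its group means were highest after the male high dose (2.87) and the male low dose (2.72). Its log2 difference from control was 0.51 for male high dose (adjusted p = 0.00088), which passed the 1.5-fold limit without male control replicate 3 (0.60), 0.36 for male low dose (adjusted p = 0.017), 0.33 for female low dose (adjusted p = 0.021) and 0.28 for female high dose (adjusted p = 0.053). In RAR it was 0.13 in females (adjusted p = 0.38) and 0.22 in males (adjusted p = 0.080). Nfkbie lay between 1.28 and 1.72 on the control arrays and between 1.37 and 1.69 on the irradiated arrays, and its log2 differences from control ran from −0.12 to 0.13.

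Counted over the 10 genes against control, 3 were higher after the female high dose, where 4.23% of all probes were higher and 7.89% were called in either direction. The count was 4 after the male high dose (5.2% of probes higher, 10.6% in either direction), 3 after the female low dose (4.76% and 8.77%) and 1 after the male low dose (3.21% and 6.65%). In RAR 5 genes were higher in females (9.64% of probes higher, 20.5% in either direction) and 5 in males (11.2% and 24.6%). No member was called lower in any of these comparisons. The median log2 difference over the members, Rel included, was 0.45 in female RAR and 0.65 in male RAR, and over all probes it was −0.040 and −0.015. Arrays of the irradiated group did not overlap those of the control for 7 of 10 genes after the female high dose, where 30% of probes did not overlap. This held for 7 after the male high dose (34.6% of probes), 8 after the female low dose (30.3%), 6 after the male low dose (26.3%), 6 in female RAR (37%) and 7 in male RAR (42.6%). Both directions are counted: Nfkb1 lay below control after the female low dose, and Rel, near background, after the male low dose. The male low dose count includes Nfkbia with 2 values, while the shares cover only probes with a value on every array compared. The 3 irradiated groups of a sex share their control arrays, and so these counts are not independent of each other.

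Within slides that held both groups, the calls of the other members against control kept their direction. For Nfkb2 the log2 difference was 0.78 in male high dose and 1.19 in male RAR. For Relb it was 0.58 in male high dose, 0.52 in female low dose and 0.95 in male RAR. For Nfkbiz it was 0.90 in male high dose, 0.96 in female low dose and 1.08 in male RAR, and for Nfkbia it was 0.75 in male RAR. In all of these, male RAR was 1 array against 1 control array. Male high dose was 2 arrays against 1, and female low dose 1 against 3. Female RAR and female high dose share no slide with female control, and those calls have no within-slide value.

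The comparison of RAR with each single dose asks whether the adaptive regimen gave levels different from those of its parts. Bcl3 was the member called in all 4 comparisons. It was 1.65-fold higher in RAR than after the high dose in females (log2 difference 0.72, 95% confidence interval 0.34 to 1.1, adjusted p = 0.014) and 1.51-fold higher in males (0.59, interval 0.21 to 0.97, adjusted p = 0.044). Against the low dose it was 1.79-fold higher in females (0.84, interval 0.46 to 1.22, adjusted p = 0.0096) and 2.03-fold higher in males (1.02, interval 0.64 to 1.40, adjusted p = 0.00068).

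The calls of Bcl3 against the high dose rest on few arrays. In females the call ended without female high dose replicate 2 (log2 difference 0.65, adjusted p = 0.060), without female RAR replicate 2 (0.68, adjusted p = 0.051) and without female RAR replicate 3 (0.65, adjusted p = 0.0592), while against the low dose it ended without female low dose replicate 2 (0.76, adjusted p = 0.051). In males it ended with quantile normalization (0.41), with Cy5 alone (0.52) and on dropping the most distant of the 3 values per group (0.43), and in 14 of 24 fits with an array left out. Of these, male RAR replicate 1 moved the log2 difference to 0.39 (adjusted p = 0.22), and male RAR replicate 2, male high dose replicates 1, 2 and 3 gave 0.60, 0.58, 0.56 and 0.63 (adjusted p = 0.082, 0.10, 0.14 and 0.064). The other 9 arrays, female control replicates 1 to 3, female high dose replicates 1 to 3, female low dose replicate 3 and male control replicates 1 and 3, moved only the adjusted p, to between 0.0501 and 0.0539. Within slide 1 and slide 2 the male difference was 0.41 (2 RAR arrays against 1) and 0.98 (1 against 2). Within slide 1 the female difference was 0.65 (2 against 3). Against the low dose the differences within slide 2 were 0.98 in females (1 RAR array against 2) and 1.56 in males (1 against 1).

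Nfkb2 and Relb were also higher in male RAR than after the male low dose, by 1.65-fold (adjusted p = 1.78e-05) and 1.54-fold (adjusted p = 0.0033). For Relb this call ended without male low dose replicate 1 or 2 (log2 difference 0.57 each) and with quantile normalization (0.53), and with Cy5 alone Relb stood at 0.54 and Nfkb2 at 0.49. The same comparison in females gave log2 differences of 0.23 for Nfkb2 (adjusted p = 0.12) and 0.25 for Relb (adjusted p = 0.33). Nfkbia was 0.27 higher on the log2 scale in female RAR than after the female high dose (adjusted p = 0.041), under the 1.5-fold limit. The values of Tnfaip3 ran the other way, with −0.28 in male RAR against male high dose (adjusted p = 0.062) and −0.16 in females (adjusted p = 0.31).

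In these comparisons 1 of 10 genes was higher in female RAR than after the high dose (4% of all probes higher, 7.3% in either direction), 1 in males (3.1% and 5.89%), 1 in female RAR against the low dose (2.28% and 4.14%) and 3 in males (4.98% and 9.78%). None was called lower. Counted in either direction, the groups did not overlap for 7 genes (female RAR and high dose, 28.2% of probes), 6 (male RAR and high dose, 30.7%), 6 (female RAR and low dose, 24%) and 7 (male RAR and low dose, 28.5%). These counts include genes that lay lower in RAR. They were Rela and Tnfaip3 in females against either single dose, and Tnfaip3 in males against the high dose. Between the high and the low dose, a comparison added after the values were seen, 0 members were called in either sex (limma, against 0% of probes in females and 0.0018% in males), with 0 of them under an unadjusted p of 0.05 in females (4.74% of all probes) and 3 in males (7.35%). These were Nfkb2 (log2 difference 0.37, unadjusted p = 0.00051, adjusted p = 0.31), Bcl3 (0.43, unadjusted p = 0.028, adjusted p = 0.64) and Nfkbiz (0.34, unadjusted p = 0.039, adjusted p = 0.66).

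**Figure D3:**
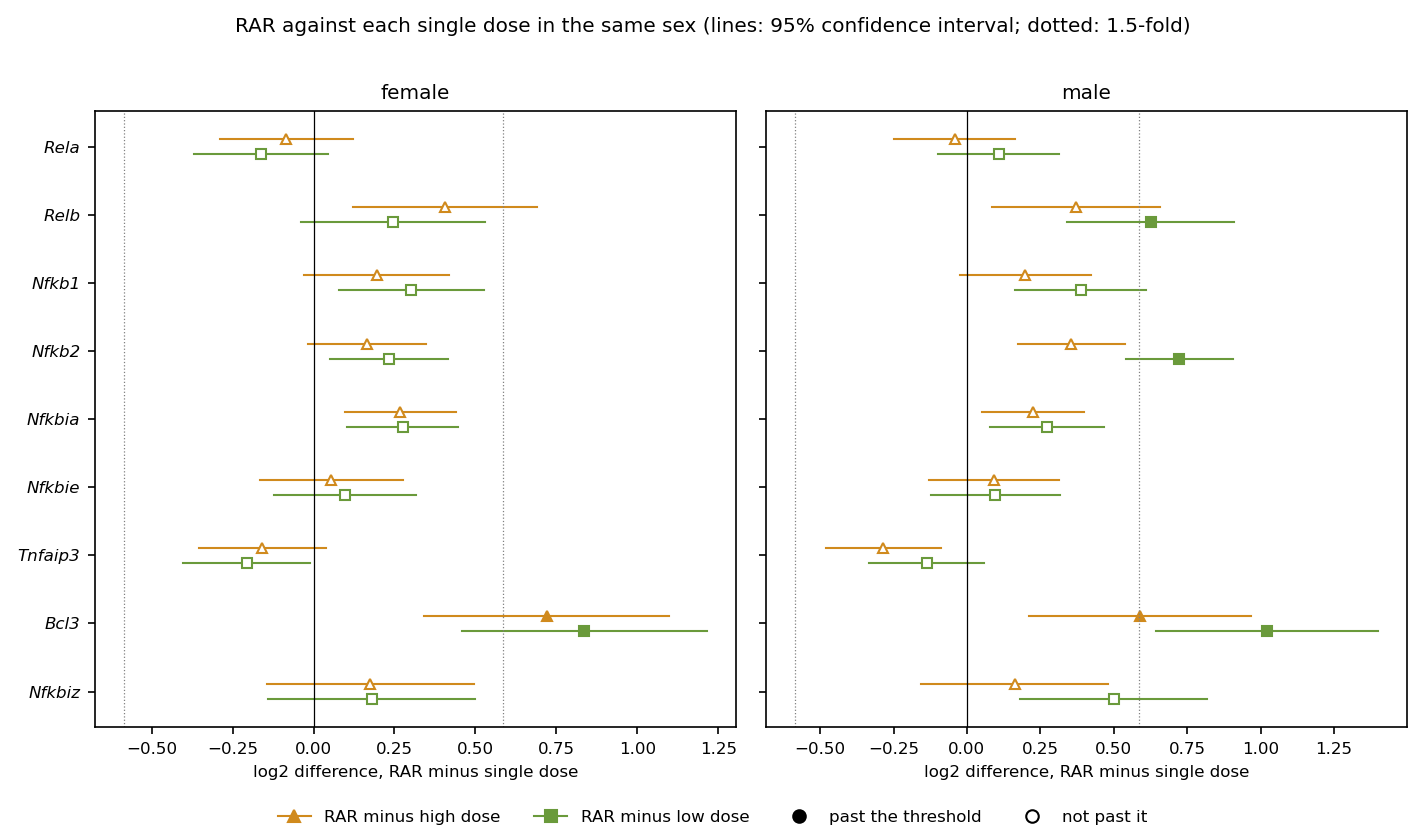
Log2 difference of RAR minus the high dose (triangles) and RAR minus the low dose (squares) in the same sex (x axis) for 9 genes (y axis), in females (left) and males (right). Lines are 95% confidence intervals, dotted lines mark 1.5-fold, and filled symbols are past the threshold. Bcl3 is filled in all 4 comparisons (0.59 to 1.02), Nfkb2 and Relb only for male RAR minus low dose, and Tnfaip3 lies between −0.28 and −0.14.

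No member differed between the sexes in RAR past the threshold. The sexes were not compared directly within control, the low dose or the high dose. Between male and female RAR, 0 of 10 genes were called in limma (0.343% of all probes higher in males, 0.438% in either direction). The groups did not overlap for 3 genes (14.5% of probes), and 1 had an unadjusted p under 0.05, as did 11.8% of all probes. This was Nfkb2, higher in male than in female RAR by 0.34 on the log2 scale (95% confidence interval 0.16 to 0.52, unadjusted p = 0.0011, adjusted p = 0.12), with all 3 male values (−0.61 to −0.51) above all 3 female ones (−0.97 to −0.83). For Bcl3 the sex difference in RAR was 0.12, with an interval from −0.26 to 0.49.

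The sex difference of Nfkb2 in RAR exceeded that in control by 0.29 (interval 0.034 to 0.55, adjusted p = 0.62), that at the high dose by 0.19 (interval −0.066 to 0.45) and that at the low dose by 0.49 (interval 0.23 to 0.75, unadjusted p = 0.00087, adjusted p = 0.54). Over all 3 such contrasts 0 members were called, against 0%, 0.00359% and 0% of probes in either direction. In the F-test of sex by treatment 0 members had an adjusted p under 0.05 (0.00359% of probes), and Nfkb2 had the lowest p of the 10, 0.0072 before and 0.69 after adjustment.

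Of 24 kinases and adaptors upstream of NF-κB, 0 to 3 were higher and 0 to 3 lower in each comparison with control. In female and in male RAR alike 3 were higher and 3 lower, 12.5% each way, beside 10.5% higher and 15.1% lower (females) and 13.0% and 17.4% (males) of all named genes. The median log2 difference in female RAR was −0.0017 over the list and −0.09 over all named genes. Myd88, the adaptor of Toll-like and IL-1 receptors, was 2.01-fold higher in female RAR and 2.30-fold in male RAR (adjusted p = 1.46e-06 and 1.41e-07). Malt1, the paracaspase downstream of the antigen receptor, was 1.87-fold higher in female RAR (adjusted p = 4.31e-05). Ikbkg, the regulatory subunit of the IκB kinase, was lower in RAR, with log2 differences of −1.07 in females (adjusted p = 9.69e-05) and −1.10 in males (adjusted p = 5.65e-05).

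Of 11 further inhibitors of NF-κB, 2 were higher and 1 lower in female RAR, and 3 were higher and 1 lower in male RAR. As shares these are 18.2% and 9.09% in females and 27.3% and 9.09% in males, on counts too small to set against those of all named genes. Of the 9 that were well above background on all arrays, 1 was higher and 1 lower in female RAR. In male RAR 3 of these 9 were higher and 1 lower. Tnip2, which binds A20, was 1.64-fold higher in females (adjusted p = 2.30e-05) and 1.83-fold in males (adjusted p = 2.07e-06). Commd1, which promotes the breakdown of RelA, was lower with log2 differences of −0.77 (adjusted p = 4.78e-06) and −0.92 (adjusted p = 4.37e-07). The single doses gave 0 or 1 call in each direction.

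At least 12 of 24 measured inflammatory and survival genes known as targets of NF-κB were higher in each irradiated group than in control. Of the 24, 12 were higher after the female high dose, 15 after the male high dose, 13 after the female low dose and 12 after the male low dose, against 4.32%, 5.9%, 4.91% and 3.68% of all named genes. In RAR 16 were higher in females (10.5% of named genes) and 20 in males (13.0%), and 0 were lower in any of the 6 comparisons. Of the 18 targets well above background on all arrays, 8 to 11 were higher after the single doses, 12 in female RAR and 15 in male RAR. The median log2 difference over the list was 0.70 to 1.15 for the single doses, 1.2 for female RAR and 1.79 for male RAR, and over all named genes it was −0.09 to −0.04.

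Il1b, a cytokine of activated myeloid cells, was 27.2-fold higher than control in female low dose, 47.1-fold in male low dose, 33.9-fold in female high dose, 54.9-fold in male high dose, 30.2-fold in female RAR and 35.4-fold in male RAR (adjusted p between 2.42e-09 and 4.93e-08). The chemokine gene Cxcl10 was 12.6-fold higher in female RAR than after the female high dose (adjusted p = 1.17e-06) and 21.4-fold higher in males (adjusted p = 4.04e-07). Ccl4, another chemokine gene, was 5.65-fold higher in female RAR than after the high dose (adjusted p = 6.66e-06) and 6.99-fold in males (adjusted p = 1.82e-06), and Ccl2, which attracts monocytes, was 5.10-fold and 7.01-fold higher (adjusted p = 4.38e-06 and 6.94e-07). In all, 8 of the 24 targets were higher in RAR than after the high dose in females and 9 in males, and 6 and 13 were higher than after the low dose. Of all probes, 4% and 3.1% were higher than after the high dose, and 2.28% and 4.98% than after the low dose. Cxcl2 and Il6 were called in comparisons with control too, but were well above background on 15 and 13 of 24 arrays, and no fold is given for them.

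**Figure D4:**
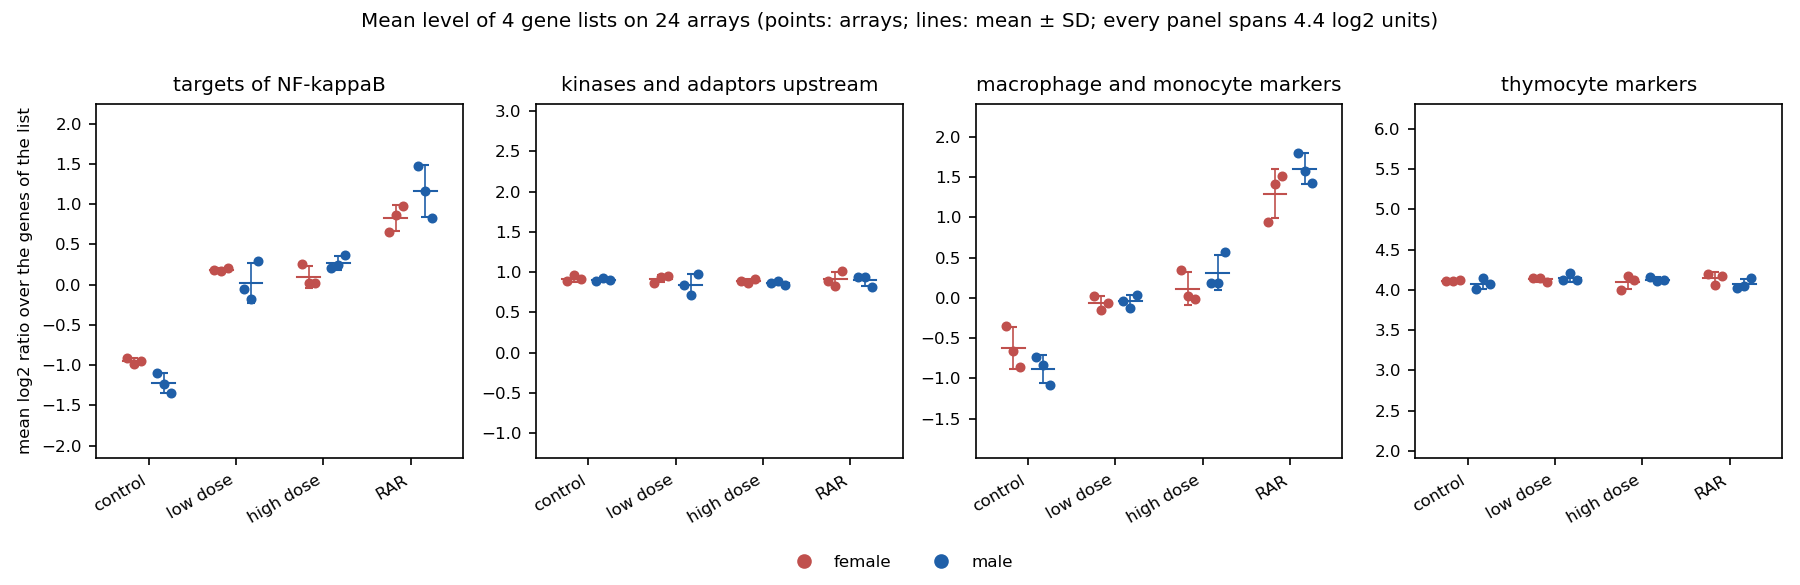
Mean log2 ratio over the genes of a list (y axis, the same span in every panel) on each array, by treatment (x axis), for 24 targets of NF-κB, 24 upstream kinases and adaptors, 10 macrophage and monocyte markers and 8 thymocyte markers. Points are arrays, with females in red and males in blue, and lines are the mean ± SD of a group. The target list and the macrophage list are lowest in control and highest in RAR, and the thymocyte list stays between 4.0 and 4.21.

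Several markers of macrophages and monocytes were also higher after irradiation. The 10 markers of macrophages and monocytes (Csf1r, Adgre1, Cd68, Cd14, Lyz2, Itgam, Fcgr3, Tyrobp, Cebpb and Mrc1) were all well above background on every array, controls included. Their mean log2 ratio was −0.86 to −0.35 in female control, −1.08 to −0.73 in male control, −0.15 to 0.034 after the low dose, −0.019 to 0.56 after the high dose, 0.95 to 1.52 in female RAR and 1.43 to 1.81 in male RAR. Against control 5 were higher in female high dose, 8 in male high dose, 4 in female low dose (with 1 lower), 5 in male low dose, 8 in female RAR and 10 in male RAR. RAR was higher than the high dose for 9 (females) and 8 (males) and higher than the low dose for 9 and 10. Of all probes, 3.21% to 5.2% were higher than control after the single doses, 9.64% in female RAR and 11.2% in male RAR. In RAR against a single dose 2.28% to 4.98% were higher. Cd14 was 15.3-fold higher in female RAR and 17.6-fold in male RAR than in control. The part of such cells in the levels of the NF-κB genes and their targets was not tested.

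The 7 neutrophil markers measured rose in part, with 3 or 4 higher than control in each irradiated group, and 1 lower in male RAR. Their mean log2 ratio was 2.43 to 2.90 on the control arrays and 3.35 to 3.92 on the irradiated ones. Without Cxcr2, which was well above background on 1 of 6 control arrays, 2 or 3 of 6 were higher, and the mean was 2.62 to 3.21 and 3.24 to 3.80. Of 6 markers of mature T cells, 0 to 3 were higher after the single doses, 4 in female RAR and 5 in male RAR, and 3 or 4 were higher in RAR than after either single dose. The mean log2 ratio of these 6 was 3.40 to 3.77 on the control arrays and 3.88 to 4.72 on the irradiated ones. Of 6 B cell markers, 1 to 4 were lower than control in every irradiated group, and of the 3 that were well above background on all arrays, 1 or 2. Of 6 dendritic cell markers, 2 were higher in every irradiated group, and both were among the 3 well above background on all arrays. Against control, 6.65% to 10.6% of all probes were called in either direction after the single doses. In RAR the share was 20.5% in females and 24.6% in males. A count of 1 or 2 in such short lists is too small to set against these shares.

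Of 10 markers of CD4+CD8+ thymocytes, 0 or 1 was higher after the single doses, 2 were higher and 2 lower in female RAR, and 4 were higher in male RAR. Of the 8 thymocyte markers, 1 was called, in male RAR against control. Thymic epithelium (6 markers) gave 1 or 2 lower after the single doses, and 1 higher and 1 lower in each RAR group. The mean log2 ratio of these 6 was 0.19 to 0.65 on the control arrays and −1.12 to −0.042 on the irradiated ones. Only 2 of the epithelial markers were well above background on all arrays, and of these 1 was lower in female high dose, 0 after the other single doses, and 1 higher in each RAR group. The mean of these 2 was −0.81 to −0.44 on the control arrays and −1.15 to 0.59 on the irradiated ones. Stroma and endothelium (7 markers, 4 well above background on all arrays) gave 0 calls for the single doses and 1 in each direction in each RAR group. Proliferation genes (6) gave 0 or 1 higher after the single doses and 1 lower in male RAR, and 3 in females and 5 in males were lower in RAR than after the high dose. Beside these counts, 20.5% (female RAR) and 24.6% (male RAR) of all probes were called against control in either direction. For RAR against the high dose the share was 7.3% in females and 5.89% in males. Counts of 1 or 2 in these lists are too small to set against such shares.

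The 2 members with the largest mean change over the 6 comparisons with control, Bcl3 and Nfkbiz, were also set against the 12214 probes that had a gene name, belonged to no member and were well above background on all arrays. Across the 8 group means the genes closest to Bcl3 were Aen (Pearson r 0.997), Dcbld1 (0.995), Cish (0.995), Ass1 (0.995) and Cd14 (0.995). The log2 difference of Aen from control in RAR was 2.23 in females and 2.45 in males, and that of Cish was 2.25 and 2.08. The genes closest to Nfkbiz were Gm14391 (0.995), Llcfc1 (0.995), Plagl1 (0.995), Chd2 (0.992) and 6820431F20Rik (0.992). The log2 difference of Plagl1 from control was 1.71 in female RAR and 1.63 in male RAR. The 8 means share the reference RNA and are mostly set apart by control against irradiated, so these values are a description over 8 groups.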

How the data were processed

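Total RNA of thymocytes was labelled with Cy5 and Universal Mouse RNA with Cy3, on Agilent mouse arrays (design build mm9), without dye swaps. The authors deposited the intensity of 62976 spots per array in both channels, with background subtraction and dye normalization by the scanner software, and log2 values of Cy5 over Cy3 for the series. On all 24 arrays, 100% of these deposited log2 values came within 0.01 of those computed here from the processed intensities, which were the ones used. Control spots were dropped, as were 183 to 368 spots that the scanner software marked as outliers, and saturation was found in 0 spots. Averaging the spots of each probe left 55681 probes. RefSeq (GRCm38.p6) gave names, never coordinates, to 28020 probes of 21150 genes. The probe with the highest mean Cy5 signal stood for a gene. No column of values was left unmatched to a sample (0).

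In limma 3.58.1 (R 4.3.3) a mean was fitted for each of the 8 groups over all arrays, with no further terms, which left 16 residual degrees of freedom and added 1.63 from the prior. Benjamini-Hochberg adjustment covered every probe tested. Calls required both 0.05 for the adjusted p and 1.5 for the fold, as in the methods of the study. Its results state 1.5 on the log2 scale instead, which was run as an alternative and left Bcl3 as the one member called against control and none in the other comparisons. The sex by treatment interaction was limma's F-test of its 3 terms. Exact permutation tests of single genes were two-sided. Tables were read with the data.table package (version 1.17.8), Python 3.11.15, pandas 2.3.3 and numpy 2.4.6, and plots were drawn with matplotlib 3.10.9. The fit was tested on simulated data, where it missed part of the changes put in, more so the smaller ones. The correlation between arrays of a group was 0.801 to 0.914 over probes. The small number of arrays, 3 in a group, limits the precision.

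The labels carry a running number over the whole series, and the replicate numbers used here follow its order within each group. Since each sample came from a separate mouse, the numbers were not used as pairs. The members, gene lists, comparisons and alternatives were chosen with earlier results of these data known. All 10 members are reported. From each list at most 4 genes per comparison were eligible for naming, those with the largest log2 difference among the called ones, and some of these are given. For Bcl3 and Nfkbiz the 5 most similar probes are named. The high dose against low dose comparison and the values of Cy5 alone relative to a median shift were added after the data were seen, as were list counts over genes well above background on all arrays. The alternatives were normexp background correction (offset 50) with loess, quantile normalization between arrays, the deposited table, Cy5 alone (minus percentile 75 of each array), leaving out dim probes, the slide or the replicate number as a block, leaving out each array or the farthest value of each group, the log2 threshold and the mean over the probes of a gene.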

Additional observations from a re-analysis of the deposited data

How the results depend on the processing

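The direction of each member call held under the alternatives run, except for Nfkb2 and Nfkbia in female RAR when Cy5 alone is set against the median shift of all probes (values at the end), and Bcl3 against control stayed past the threshold under each. With 1 array left out, the number of members called was 3 to 4 for female high dose, male high dose and female low dose, 1 for male low dose and 5 for both RAR groups against control. It was 0 to 1 for RAR against high dose in either sex and for female RAR against low dose, 2 to 4 for male RAR against low dose, and 0 for high against low dose, for male against female RAR, for the sex contrasts and for the interaction. Without female RAR replicate 3, the array with the fewest spots above background, 5 members were called in female RAR against control and 0 against high dose. With a log2 difference over 1.5, 1 member (Bcl3) was called in each comparison with control, and 0 in RAR against either single dose. With quantile normalization 0 members were called in male RAR against high dose. With Cy5 alone the counts against control were 2 for female high dose, male high dose and female low dose, 3 for female RAR and 4 for male RAR, and they were 1 for male RAR against low dose and 0 for male RAR against high dose. Leaving out the farthest value of each group shrinks the spread. It gave 3 and 2 members in female RAR against high and low dose (25.8% and 21.5% of all probes). For male RAR against low dose it gave 5 (28.9%), and for high against low dose 1 in each sex (13.9% and 18.1%). Between male and female RAR 1 was called (18.7%), and in the interaction 6 (60.5%). The 3 sex contrasts together gave 3 calls, where each contrast tested 10 members and called 18.9% to 21.3% of all probes. These counts include Rel, which is near background, and in male RAR against high dose Rel was called under this setting and Bcl3 was not (0.43).

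Deviations of same-numbered arrays correlated with a median of −0.0036 (−0.16 to 0.22 over 84 pairs). As the replicate numbers only follow the order of the labels, this cannot tell whether mice were paired in some other way. With the replicate block, 0 members were called in male RAR against high dose, where the adjusted p of Bcl3 was 0.065, and the other counts of called members were as without it.

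With Cy5 alone the median of all probes moved by 0.64 in female RAR, 0.33 in male RAR and 0.14 in male low dose against control, and that of 17990 probes well above background on every array by −0.25, −0.24 and −0.068. Relative to the shift of all probes, Nfkb2 and Nfkbia in female RAR flip to −0.19 and −0.29, Relb is at 0.065, Nfkbiz at 0.38 and Bcl3 at 2.49. Relative to the shift of the brighter probes they are 0.70, 0.61, 0.96, 1.28 and 3.38. Of the calls over all probes in female RAR against control, 5368 were higher and 6035 lower, and Cy5 alone gave 16647 and 7394. For female RAR against high dose it gave 9858 and 1743 in place of 2226 and 1837, and against low dose 5924 and 1544 in place of 1269 and 1034. Normexp and loess raised the share of higher calls by over 10 points in all 10 of these comparisons, to 64.7% to 84.5%. The cause of these shifts was not tested.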
